A study of Mus musculus with 6 samples.

Results

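The genes described here are 10 members of the fibroblast growth factor (Fgf) pathway, taken by name from 21911 mouse protein-coding genes: the ligands Fgf7, Fgf8, Fgf9, Fgf10 and Fgf18, the receptors Fgfr1, Fgfr2 and Fgfr3, the carrier protein gene Fgfbp1 and the feedback inhibitor gene Spry2. Their open chromatin was compared between the epithelium and the mesenchyme of the mouse palate by ATAC-seq, an assay in which a transposase cuts accessible DNA and short fragments mark stretches free of nucleosomes. All 6 libraries came from the palatal shelves of C57BL/6 embryos at E14.5, with no transgene, deletion or treatment given for either tissue, 3 libraries of epithelium peeled off by hand after trypsin and 3 of the tissue left behind, which is mesenchyme in the main. Each library used 20000 cells, but the sources disagree on what was pooled: the series design names 3 embryos, the protocol 5 palatal shelves, and the methods of the study yet another number. Each library has its own list of peaks (stretches called as open), and a peak was given to a gene when its midpoint fell in the gene body or within 100 kb of the start site. These windows held 404 of the 342690 regions of the genome with a peak in at least 2 libraries.

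Fgf ligands are secreted proteins that bind receptor tyrosine kinases with heparan sulphate as a cofactor, and the bound receptor signals through Frs2, Ras and the Erk kinases. In the palate the signal runs in both directions between layers: Fgf10 and Fgf7 are made by mesenchyme and are read by an epithelial splice form of Fgfr2, and Fgf8 and Fgf9 are known from oral and palatal epithelium and act on mesenchyme through other receptor forms. Fgfbp1 releases ligands bound to the matrix, and Spry2 is induced by the signal and damps it. Peaks show where DNA was open, not how much RNA was made.

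Across the 10 genes the numbers of peaks in the tissues were close, and 20 single regions were open in every library of one tissue and in none of the other. No member passed the limma test of peaks per gene in either direction (0 higher and 0 lower in epithelium at an adjusted p under 0.05, and 0 at an unadjusted p under 0.05), where 1.51% of 21724 genes tested were called higher and 1.7% lower, 3.21% in all. The median log2 difference, epithelium minus mesenchyme, was -0.0017 over the members and -0.0223 over all genes. In the windows of the members, 14 regions were open in epithelium libraries 1, 2 and 3 and in none of mesenchyme (epithelium-only below), which is 3.47% of their 404 regions against 2.98% of all regions. A further 6 were mesenchyme-only, the opposite pattern, or 1.49% against 2.2%. Both shares were near those of the genome, so nothing is read from them about the set as a whole. At least 1 epithelium-only region was found at 7 of the 10 members (45.7% of all genes) and at least 1 mesenchyme-only region at 4 (50.0%). Regions open in all 6 libraries numbered 94, or 23.3% against 19.1%. The libraries are bulk tissue, so a region open in fewer cells and a region less open in each cell cannot be told apart, and a missing peak can also be a signal under the threshold of the authors.

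The labels of the tissues were checked against marker genes. Trp63, the regulator of stratified epithelia, had 25, 26 and 14 peaks in epithelium libraries 1, 2 and 3 and 4, 12 and 4 in mesenchyme libraries 1, 2 and 3, and it was the only one of 12 epithelium markers called (log2 difference 1.73 ± 0.30 SE, limma adjusted p = 0.000575). Prrx1, a homeobox gene of limb and face mesenchyme, had 6, 16 and 14 against 23, 24 and 28 and was the only one of 12 mesenchyme markers called (-1.04 ± 0.24, limma adjusted p = 0.00997). The epithelium markers held 20 epithelium-only and 8 mesenchyme-only regions, and the mesenchyme markers 2 and 21. Markers of other cell types held 7 and 4 (endothelium, 7 genes), 3 and 7 (immune, 6 genes), 0 and 6 (muscle, 6 genes), 2 and 4 (nerve and glia, 6 genes) and 2 and 1 (erythroid, 6 genes), with none called by peak number. Their summed scaled peaks spanned 217 to 242 in epithelium and 221 to 255 in mesenchyme for endothelium, 413 to 418 and 400 to 444 for immune, 365 to 377 and 375 to 399 for muscle, 342 to 373 and 331 to 378 for nerve and glia, and 279 to 320 and 296 to 313 for erythroid genes. No marker gene is at 0 peaks in any library, and the part of these cells in the values below was not tested.

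The sequences printed here come from tissue-only regions that do not touch an exon. The central 200 bp are printed for those whose narrowest peak was the widest, at most 2 per gene, from the forward strand of mm10 (GRCm38), 5′ to 3′. Capitals mark matches, on either strand, to short consensus letters of transcription factor families. The first 6 are epithelium-only.
Spry2 far downstream, chr14:105803076-105803275: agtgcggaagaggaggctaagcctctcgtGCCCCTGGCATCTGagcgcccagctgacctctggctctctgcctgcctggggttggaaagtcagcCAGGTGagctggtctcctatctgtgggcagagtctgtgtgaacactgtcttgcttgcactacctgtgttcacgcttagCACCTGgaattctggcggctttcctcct
Spry2 near downstream, chr14:105891174-105891373: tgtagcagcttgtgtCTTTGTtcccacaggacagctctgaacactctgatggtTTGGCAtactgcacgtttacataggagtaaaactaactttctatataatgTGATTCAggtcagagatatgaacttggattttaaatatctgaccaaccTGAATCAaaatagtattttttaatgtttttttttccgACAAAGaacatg
Fgfr1 upstream, chr8:25438039-25438238: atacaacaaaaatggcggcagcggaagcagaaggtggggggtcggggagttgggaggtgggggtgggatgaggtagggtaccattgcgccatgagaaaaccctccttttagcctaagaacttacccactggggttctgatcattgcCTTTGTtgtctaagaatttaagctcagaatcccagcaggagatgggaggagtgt
Fgf8 upstream, in an Armh3 intron, chr19:45837246-45837445: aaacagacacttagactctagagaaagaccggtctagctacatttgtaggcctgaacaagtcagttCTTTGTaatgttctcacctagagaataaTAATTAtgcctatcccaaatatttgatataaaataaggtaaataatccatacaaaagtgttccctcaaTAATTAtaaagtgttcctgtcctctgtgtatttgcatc
Fgfbp1 upstream, chr5:43983161-43983360: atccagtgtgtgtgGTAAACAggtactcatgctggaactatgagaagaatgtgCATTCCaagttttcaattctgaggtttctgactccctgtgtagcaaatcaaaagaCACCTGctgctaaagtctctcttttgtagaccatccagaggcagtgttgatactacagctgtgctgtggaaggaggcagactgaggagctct
Fgfr2 intron, chr7:130213546-130213745: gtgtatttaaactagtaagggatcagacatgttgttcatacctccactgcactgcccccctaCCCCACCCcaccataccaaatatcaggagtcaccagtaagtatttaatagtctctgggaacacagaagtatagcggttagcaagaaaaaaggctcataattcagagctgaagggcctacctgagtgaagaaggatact
The next 2 are mesenchyme-only. The 2 mesenchyme-only regions at Fgfr3 also qualified and are not printed, a choice made once their repeat and pseudogene content was known.
Fgfr2 intron near the 3′ end, chr7:130174618-130174817: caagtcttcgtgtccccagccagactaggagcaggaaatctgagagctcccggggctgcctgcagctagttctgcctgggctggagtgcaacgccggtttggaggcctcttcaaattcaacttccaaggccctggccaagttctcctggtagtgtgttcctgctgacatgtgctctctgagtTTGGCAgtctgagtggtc
Fgf18 upstream, chr11:33170458-33170657: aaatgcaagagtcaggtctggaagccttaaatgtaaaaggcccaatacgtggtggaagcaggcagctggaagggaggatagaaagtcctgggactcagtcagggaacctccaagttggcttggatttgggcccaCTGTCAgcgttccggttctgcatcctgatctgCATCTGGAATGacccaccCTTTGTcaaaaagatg

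The letters searched, with the share of the central 200 bp of 342683 regions that hold them on either strand, were AP-1 TGANTCA (6.18%), TEAD GGAATG (11.5%), GRHL AACCNGTT (1.55%), KLF CCCCACCC (5.40%), TFAP2 GCCNNNGGC (8.0%), ETS AGGAAG (25.6%), RUNX TGTGGTT (4.56%), SOX ACAAAG (13.5%) and MEIS TGACAG (15.8%). The rest were homeobox TAATTA (2.14%), NF1 TTGGCA (11.3%), TCF/LEF ATCAAAG (2.39%), FOX GTAAACA (2.29%), E-box CAGATG (17.4%) and CAGGTG (20.1%), C/EBP TTGCNNAA (6.36%) and STAT TTCNNNGAA (4.53%). The Spry2 near region held 2 matches to AP-1, 2 to SOX and 1 to NF1, and the Fgf8 region 2 to the homeobox letters and 1 to SOX. The far Spry2 region held TFAP2 letters that share a base with a CAGATG match, and 2 matches to CAGGTG. The Fgfbp1 region had a FOX, a TEAD and a CAGGTG match, the Fgfr2 epithelium-only region a KLF match, and the Fgfr1 region a SOX match. Of the mesenchyme-only sequences, the Fgfr2 region held NF1 letters and the Fgf18 region MEIS, CAGATG, TEAD and SOX letters. In the Fgf18 region the CAGATG and TEAD matches share a base. A match describes letters and not a bound site, and a missing match says only that these letters are not in the window.

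Among the ligands known from palate mesenchyme, no window was richer in peaks in mesenchyme than in epithelium beyond the spread of the libraries. Together Fgf7, Fgf10 and Fgf18 held 85 regions, of which 1 was epithelium-only, 2 were mesenchyme-only and 24 were open in all 6 libraries. Fgf10, the ligand without which limbs and lungs do not form and the palate stays cleft, sits alone in its window, with no other protein-coding start site. It had 7, 9 and 8 peaks in epithelium libraries 1, 2 and 3 and 7, 6 and 6 in the mesenchyme libraries, the fewest of the 10 genes. After scaling to the mean length of the lists these were 8.07, 8.02 and 8.40 against 7.39, 5.47 and 5.92. The scaled values did not overlap and were higher in epithelium, while the numbers as listed did overlap. Scaled values that did not overlap were seen at 2 of the 10 members, Fgf10 and Spry2, both higher in epithelium (9.0% of all genes), and at 0 in the opposite direction (12.9%). The log2 difference was 0.34 ± 0.32 (SE) and failed the limma test (adjusted p = 0.622, 95% interval -0.30 to 0.99). By the scaled length of DNA that peaks covered, Fgf10 had 3.85, 3.81 and 3.34 kb in epithelium. In mesenchyme it had 4.54, 2.75 and 3.40 kb, and the groups overlapped (log2 difference 0.05, limma adjusted p = 0.899). Its start site (chr13:118714699) was open in all 6 libraries, with peaks of 1063, 1127 and 1122 bp in epithelium and 1411, 883 and 1915 bp in mesenchyme. The 1 tissue-only region, chr13:118669644-118670226, is epithelium-only and lies between genes, 44.8 kb upstream of the start site, with peaks of 442, 583 and 308 bp. When only peaks of at least 300 bp were used, Fgf10 had 1 epithelium-only and 1 mesenchyme-only region.

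Fgf7, which stimulates growth of epithelia, had no tissue-only region among its 15. Its window held 10, 16 and 12 peaks in epithelium and 12, 14 and 15 in mesenchyme, and the groups overlapped (log2 difference -0.06 ± 0.25 SE, limma adjusted p = 0.924, 95% interval -0.57 to 0.44). A peak of 389 to 587 bp covered the start site (chr2:126034658) in every library but epithelium 2, where a peak of 390 bp lay within 1 kb. The region over that start site was the only one of the window open in all 6 libraries.

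Fgf18, a ligand of bone and cartilage precursors, had the largest shift towards mesenchyme of the 10 members without passing the test. It had 53, 61 and 52 peaks in epithelium libraries and 54, 77 and 75 in mesenchyme libraries. Mesenchyme 2 and 3 were above every epithelium library, and mesenchyme 1 was not, so the groups overlapped. The log2 difference was -0.23 ± 0.13 (SE, limma adjusted p = 0.354, 95% interval -0.50 to 0.03). A share of 34.4% of its 64 regions was open in all 6 libraries. Its start site (chr11:33147400) had broad peaks throughout, 3652, 3010 and 4793 bp in epithelium and 3751, 3940 and 3830 bp in mesenchyme. Both tissue-only regions were mesenchyme-only and lay between genes. The region chr11:33170370-33170745, whose letters are printed above, had peaks of 289, 376 and 335 bp and lies 23.2 kb upstream of Fgf18, though Npm1 has the nearest start site.

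The ligands known from oral or palatal epithelium held 89 regions, 4 of them epithelium-only and 0 mesenchyme-only. Their peak numbers did not differ beyond the spread. Fgf8, an inducer in the early face, brain and limb, had 50, 75 and 82 peaks in epithelium and 62, 72 and 63 in mesenchyme. Epithelium had both the lowest and the highest library, and the log2 difference was 0.10 ± 0.13 (SE, limma adjusted p = 0.736, 95% interval -0.16 to 0.37). Without epithelium library 3 the difference was -0.05. Its start site (chr19:45742874) was covered in every library, by 2737, 1392 and 3467 bp against 1851, 2442 and 2486 bp. The window is crowded, with start sites of Fbxw4, Npm3, Mgea5 and Kcnip2, and none of the 3 epithelium-only regions had Fgf8 as its nearest start site. The neighbours chr19:45836467-45836844 and chr19:45836968-45837723 lie in an intron of Armh3, 93.8 and 94.5 kb upstream of Fgf8, with peaks of 317, 286 and 313 bp and of 653, 654 and 435 bp. On the other side chr19:45655539-45656606 lies in an intron of Fbxw4, 86.8 kb downstream, with peaks of 695, 1068 and 296 bp. All 3 lie outside a window of 50 kb. When only peaks of at least 300 bp were used, Fgf8 had 1 epithelium-only and 2 mesenchyme-only regions, and without epithelium library 1 it had 8 epithelium-only.

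Fgf9, a ligand made by many epithelia, had 20, 23 and 19 peaks against 17, 27 and 24, and the groups overlapped (log2 difference -0.05 ± 0.21 SE, limma adjusted p = 0.932, 95% interval -0.46 to 0.37). A peak lay over the annotated start site (chr14:58072686) only in epithelium 2 (2456 bp) and mesenchyme 1 (623 bp), but all 6 libraries had one within 1 kb. Those peaks measured 2005, 2456 and 2038 bp in epithelium and 1969, 2073 and 724 bp in mesenchyme. Its 1 tissue-only region, chr14:58087577-58088078, is epithelium-only and lies in an intron of Fgf9 itself, 15.1 kb from the start site, with peaks of 502, 260 and 262 bp.

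**Figure D1:**
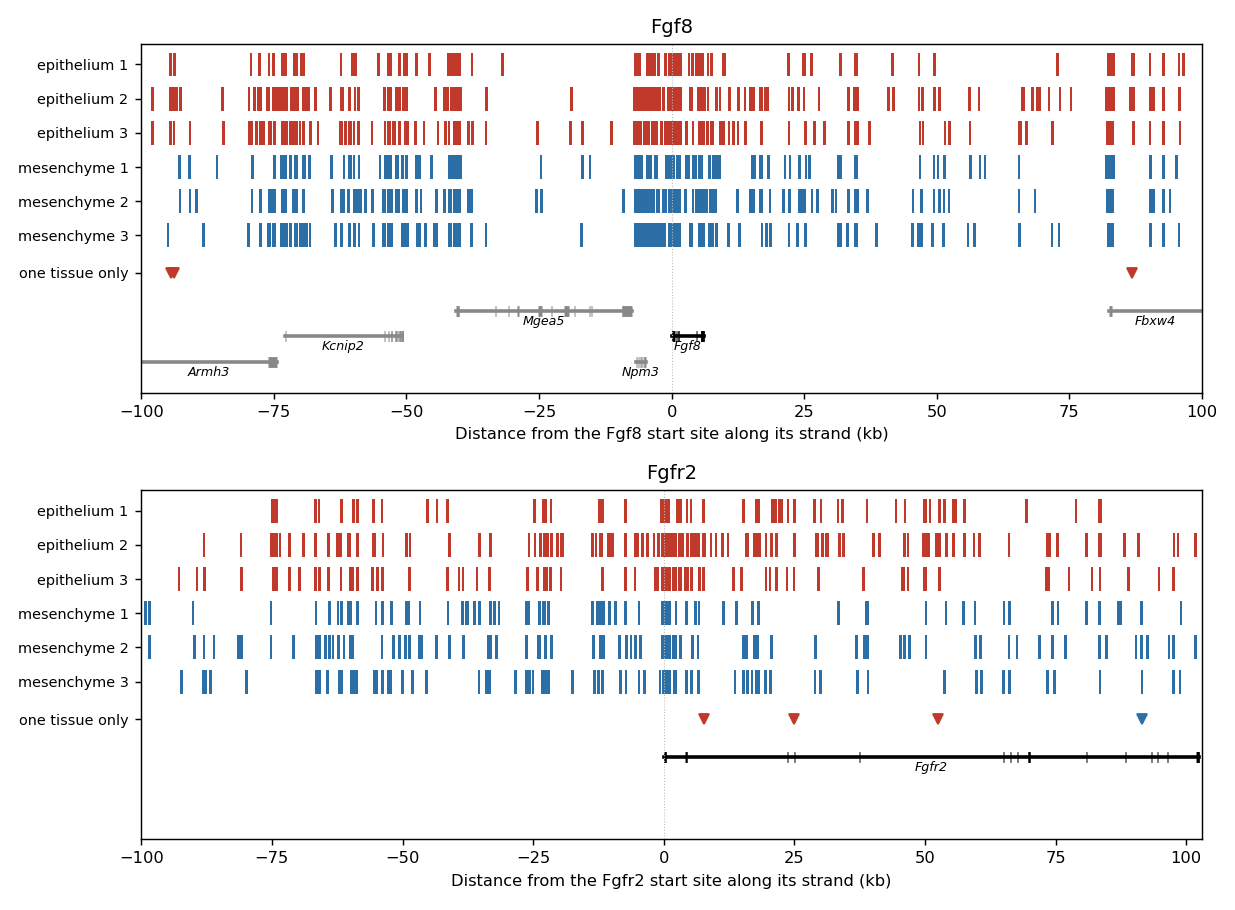
Peaks of each library (rows, red for epithelium and blue for mesenchyme, minimum drawn width enlarged to be visible) around Fgf8 and Fgfr2, the ligand and the receptor with the most tissue-only regions, by distance from the start site in kb along the strand of the gene. Triangles mark tissue-only regions and lines with boxes mark genes and exons. The 3 epithelium-only regions at Fgf8 lie far from its start site inside neighbouring genes, while the 4 tissue-only regions at Fgfr2 lie in its own introns.

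The receptors held 193 regions, of which 5 were epithelium-only, 4 mesenchyme-only and 42 open in all 6 libraries. Fgfr2, whose alternative exons make the epithelial and mesenchymal receptor forms, had 46, 80 and 61 peaks in epithelium and 62, 73 and 63 in mesenchyme. The epithelium libraries spanned the mesenchyme ones (log2 difference -0.05 ± 0.13 SE, limma adjusted p = 0.879, 95% interval -0.31 to 0.21). Its 4 tissue-only regions were the most of any member, all lay in its own introns, and no other protein-coding start site lies in the window. The epithelium-only regions were chr7:130258166-130258818, 7.7 kb into the gene with peaks of 370, 653 and 379 bp, chr7:130240936-130241400, 25.0 kb in with peaks of 221, 383 and 235 bp, and chr7:130213051-130214239, 52.5 kb in with peaks of 664, 1098 and 376 bp. The second of these touches an exon. The mesenchyme-only region chr7:130174481-130174954 lies 91.5 kb in, towards the 3′ end, with peaks of 318, 310 and 357 bp. The split at Fgfr2 depended on the rule. With peaks within 100 bp merged it was 3 epithelium-only and 3 mesenchyme-only, and 8 and 11 when 2 libraries of a tissue sufficed. Without mesenchyme library 1 it was 3 and 5, and without epithelium library 1 it was 6 and 1. At least 3 epithelium-only regions were found at 2 members, Fgf8 and Fgfr2, and at 7.66% of all genes. When peaks within 100 bp were merged Fgf8 had 2 such regions and Fgfr2 had 3. The start site (chr7:130266191) had peaks of 1968, 3074 and 1858 bp in epithelium and 1778, 1770 and 1786 bp in mesenchyme. The groups did not overlap and epithelium was wider, as at 7.17% of the start sites open in all 6 libraries (exact permutation p = 0.1, two-sided, a floor set by having 3 libraries a side).

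The window of Fgfr2 was set by its principal transcript, which spans 102.5 kb. The annotation also carries a transcript that stretches the gene record over 2.96 Mb, and that span held 584, 724 and 697 scaled peaks in epithelium against 782, 773 and 767 in mesenchyme. Fgfr2 was then called lower in epithelium (log2 difference -0.22 ± 0.06 SE, limma adjusted p = 0.0263). The principal transcript was adopted for every gene once that call had been seen, because the long span takes in other genes.

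Fgfr1, a receptor prominent in mesenchyme and neural crest, had 46, 67 and 55 peaks in epithelium and 54, 57 and 57 in mesenchyme (log2 difference 0.04 ± 0.13 SE, limma adjusted p = 0.901, 95% interval -0.22 to 0.31), with the mesenchyme values inside the epithelium range. At its start site (chr8:25518759) the order of widths was the reverse of Fgfr2: 1613, 1824 and 1688 bp in epithelium and 2229, 2065 and 2103 bp in mesenchyme. Mesenchyme was wider in every library, as at 6.3% of the start sites open in all 6 libraries (exact permutation p = 0.1, two-sided). The epithelium-only regions lie between genes upstream, chr8:25437568-25438708 at 80.6 kb with peaks of 645, 546 and 562 bp, and chr8:25496527-25496901 at 22.0 kb with peaks of 268, 266 and 375 bp. The mesenchyme-only region chr8:25557810-25558247 lies in an intron of Fgfr1 and touches an exon, 39.3 kb in, with peaks of 376, 315 and 339 bp.

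Fgfr3, a receptor that restrains bone growth, had the most peaks of the 10 members on average in each tissue, 63, 76 and 77 in epithelium and 76, 76 and 82 in mesenchyme, in a window that holds 7 other start sites (Fam53a, Gm9903, Slbp, Tmem129, Tacc3, Letm1 and Nsd2). The groups overlapped (log2 difference -0.06 ± 0.12 SE, limma adjusted p = 0.851, 95% interval -0.30 to 0.18). Peaks over its start site (chr5:33721724) measured 3429, 3640 and 3581 bp in epithelium and 2389, 4076 and 4865 bp in mesenchyme, so mesenchyme had both extremes. It had no epithelium-only region. Its mesenchyme-only regions lie in introns of neighbours, chr5:33642044-33642481 in Slbp with peaks of 222, 199 and 219 bp, and chr5:33759096-33759693 in Letm1 with peaks of 222, 385 and 280 bp. Repeats took up 83.0% of the central 200 bp of the first and 22.0% of that of the second, where the median over all regions was 11.0%. The second also overlaps the processed pseudogene Gm10059.

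Fgfbp1 and Spry2 had the largest log2 differences towards epithelium of the 10 genes, and they were called by the length of DNA that peaks covered, though not by the number of peaks. Together they held 37 regions, 4 epithelium-only and 0 mesenchyme-only. At Fgfbp1 this depended on the rule. It had 2 epithelium-only and 1 mesenchyme-only with peaks of at least 300 bp. The numbers were 2 and 2 when 1 library of the other tissue was let in, and 6 and 3 when 2 libraries of a tissue sufficed. Fgfbp1 had 19, 22 and 23 peaks in epithelium and 12, 27 and 12 in mesenchyme. Mesenchyme library 2 was above every epithelium library and the other mesenchyme libraries were below, so the groups overlapped. The log2 difference in peak number was 0.47 ± 0.24 (SE, limma adjusted p = 0.288, 95% interval -0.0066 to 0.94), and without mesenchyme library 2 it was 0.78 (limma adjusted p = 0.100). By covered length, scaled to the mean over libraries, Fgfbp1 had 9.32, 8.41 and 8.83 kb in epithelium and 3.75, 7.03 and 4.16 kb in mesenchyme. On that measure it passed the test (log2 difference 0.76 ± 0.19 SE, limma adjusted p = 0.00738), where 6.44% of 21190 genes were higher in epithelium and 8.01% lower. With each library left out in turn the adjusted p ranged from 0.00167 to 0.0467, and the call held 6 times of 6. Markers moved on this measure too: 5 of 12 epithelium markers were called higher and 0 lower, and 3 of 12 mesenchyme markers lower and 0 higher. Of 31 markers of other cell types 3 were called higher, the endothelial genes Tek (log2 difference 0.70, limma adjusted p = 0.0239) and Sox17 (0.49, limma adjusted p = 0.0396) and the erythroid gene Gata1 (0.70, limma adjusted p = 0.00664), and 2 lower, the immune gene Cd68 (-0.31, limma adjusted p = 0.0234) and the neural gene Elavl3 (-0.27, limma adjusted p = 0.0491). The part of such cells in the calls of Fgfbp1 and Spry2 was not tested.

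The start site of Fgfbp1 (chr5:43981779) was the only one of the 10 to be open in all epithelium libraries and in none from mesenchyme, a pattern shared by 0.365% of 21911 genes, and 0 members had the reverse (0.251%). The peaks were 874, 526 and 463 bp wide, and none lay within 1 kb in mesenchyme (exact permutation p = 0.1, two-sided). The region over it, chr5:43981569-43982453, is followed 1.48 kb upstream by a second epithelium-only region, chr5:43982890-43983630, with peaks of 502, 741 and 410 bp. Mesenchyme libraries did have peaks elsewhere in the window, and the 1 region open in all 6 libraries lies 33.5 kb downstream of the start site.

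**Figure D2:**
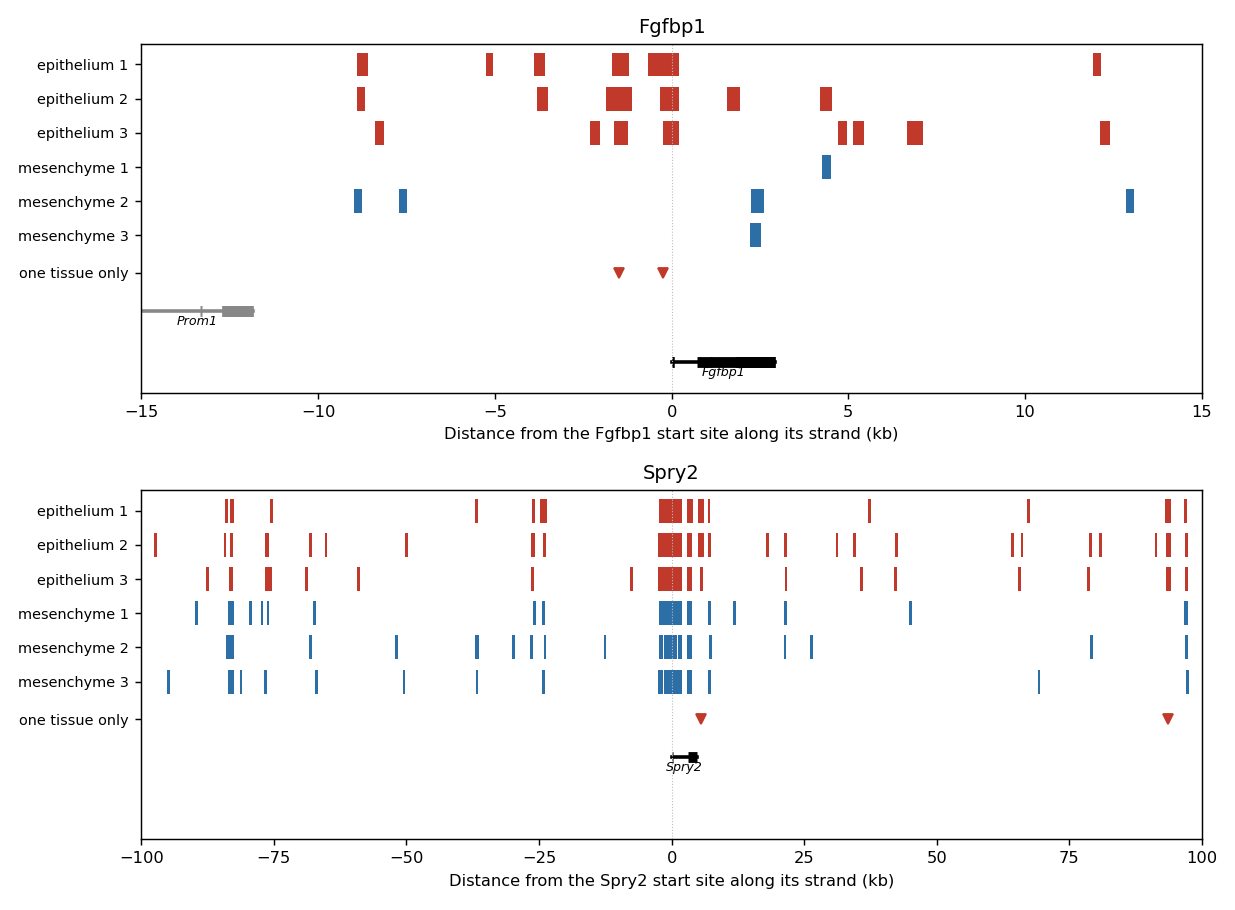
Peaks of each library (rows, red for epithelium and blue for mesenchyme, minimum drawn width enlarged to be visible) around Fgfbp1 and across the window of Spry2, by distance from the start site in kb along the strand of the gene; these loci were chosen after their values were seen. Triangles mark epithelium-only regions, which at Fgfbp1 are the start site and a region 1.48 kb upstream, and at Spry2 lie 5.55 and 93.6 kb downstream.

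Spry2, an inhibitor that Fgf signalling switches on against itself, had 16, 25 and 19 peaks in epithelium and 15, 17 and 14 in mesenchyme. After scaling these were 18.5, 22.3 and 19.9 against 15.8, 15.5 and 13.8, higher in every epithelium library, while the numbers as listed overlapped. The log2 difference was 0.40 ± 0.22 (SE, limma adjusted p = 0.343, 95% interval -0.05 to 0.85). Peaks covered 14.1, 14.48 and 12.5 kb of the window in epithelium and 10.6, 9.45 and 9.11 kb in mesenchyme, and this difference passed the test (log2 difference 0.46 ± 0.15 SE, limma adjusted p = 0.0380). That call rests on all 6 libraries: it was lost without epithelium 1 or 2 or mesenchyme 2 or 3 (adjusted p 0.0932 to 0.128) and held without epithelium 3 or mesenchyme 1 (0.0415 and 0.0447). The start site (chr14:105896819) was widely open in both tissues, with peaks of 3341, 4618 and 4509 bp in epithelium and 4373, 2319 and 3499 bp in mesenchyme. Spry2 is alone in its window, and both tissue-only regions are epithelium-only and lie between genes beyond its 3′ end. The near one, chr14:105890678-105891869, lies 5.55 kb downstream of the start site with peaks of 1073, 1192 and 528 bp, and the far one, chr14:105802571-105803779, 93.6 kb downstream with peaks of 1168, 960 and 936 bp. The narrowest peak of the far region was the widest such value of the 20 tissue-only regions. By covered length 4 members, Fgf9, Fgfr2, Fgfbp1 and Spry2, were higher in every epithelium than in every mesenchyme library (15.0% of all genes) and 0 in the opposite direction (17.6%). At Fgf9 the gap was between 12.03 and 11.94 kb and at Fgfr2 between 25.84 and 25.65 kb.

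**Figure D3:**
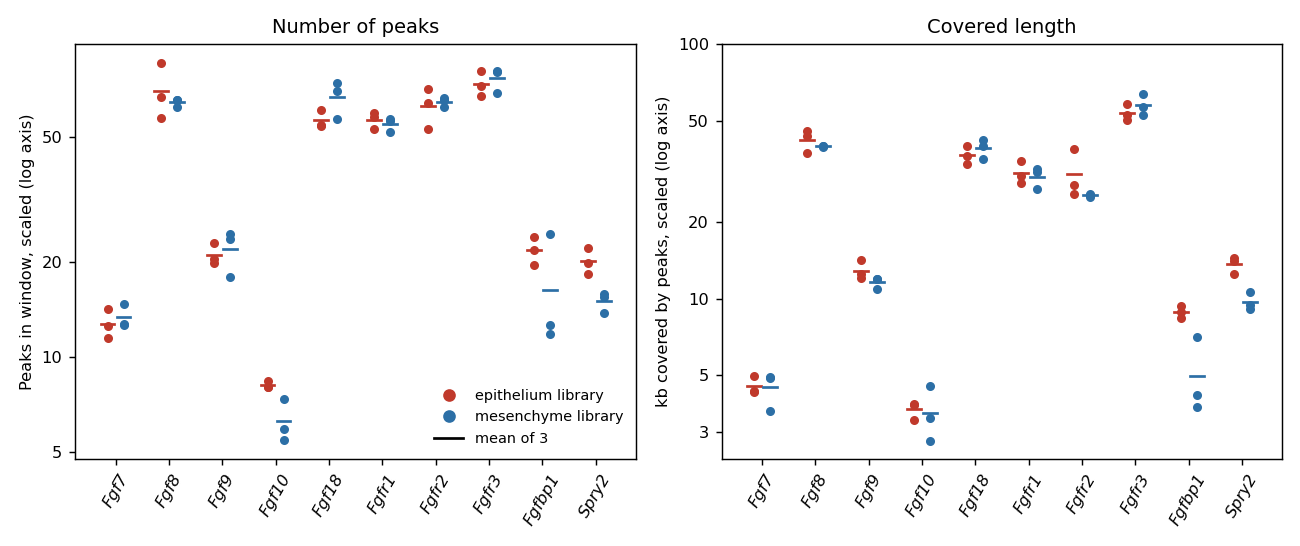
Scaled number of peaks (left) and scaled kb covered by peaks (right) in the window of each gene, on log axes, with a point for each library and a bar at the mean of 3. By number Fgf10 and Spry2 do not overlap between tissues, and by covered length the gap is clear at Fgfbp1 and Spry2 and narrow at Fgf9 and Fgfr2.

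**Figure D4:**
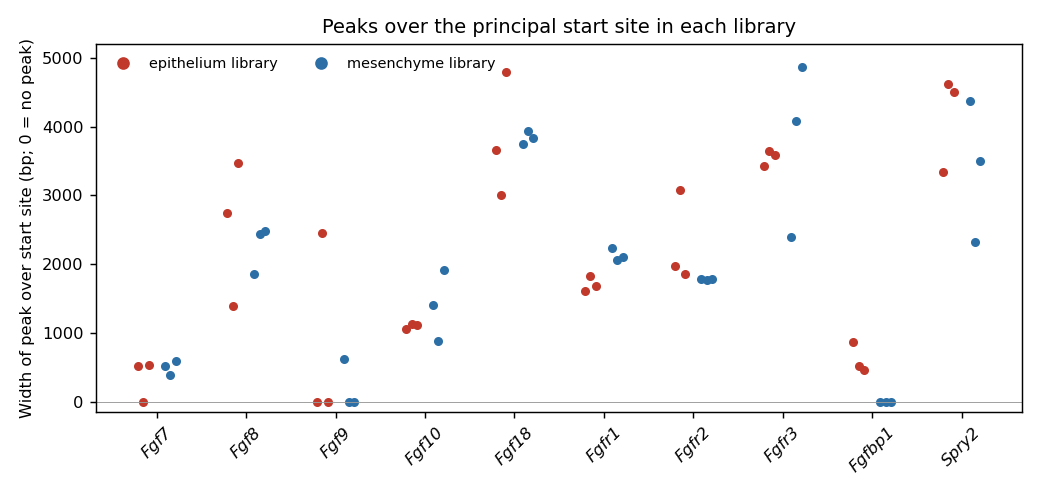
Width in bp of the peak over the principal start site in each library, with 0 where there is no peak. Fgfbp1 has a peak in the 3 epithelium libraries alone, and 7 of the 10 genes have one in all 6.

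Over the 10 genes, 7 start sites were open in all 6 libraries, where 59.7% of all genes were. The exceptions were Fgf7, Fgf9 and Fgfbp1. Of the 14 epithelium-only regions, 11 had a member as the nearest start site, and of the 6 mesenchyme-only regions 3 did. At least 2 epithelium-only regions were found at 5 members, Fgf8, Fgfr1, Fgfr2, Fgfbp1 and Spry2 (19.3% of all genes), and at least 2 mesenchyme-only regions at 2, Fgf18 and Fgfr3 (22.4%).

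**Figure D5:**
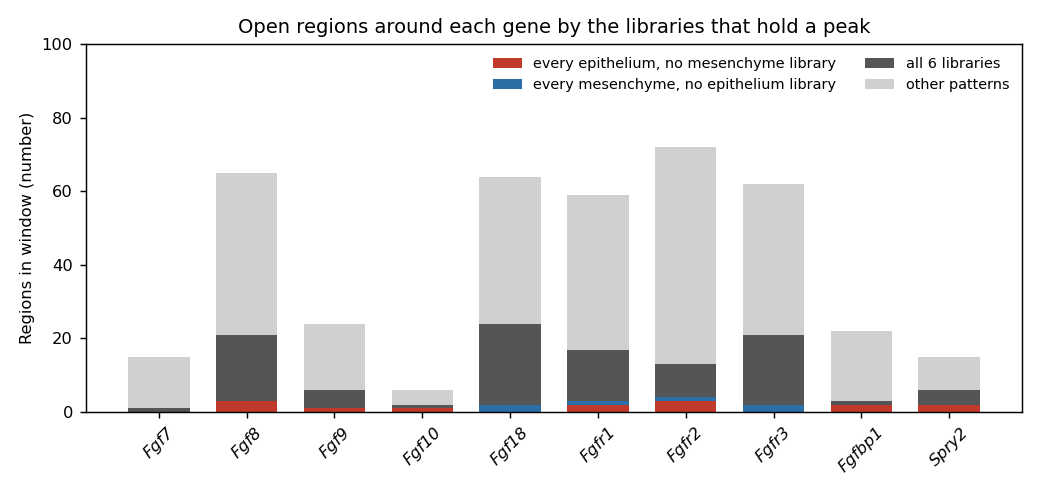
Number of regions in the window of each gene, split by the libraries that hold a peak. Tissue-only regions are few beside those open in all 6 libraries or in other combinations, and Fgf7 has none.

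The rest of the pathway gave 5 calls in 62 genes tested by peak number, 2 higher and 3 lower in epithelium, or 8.06% against 3.21% of all genes. By covered length 6 were higher (9.68% against 6.44%) and 8 lower (12.9% against 8.01%). Of 17 other Fgf genes none was called by peak number. By covered length Fgf16 was higher in epithelium (log2 difference 0.99, limma adjusted p = 0.00487) and Fgf6 lower (-0.39, limma adjusted p = 0.0490), both named after their values were seen. Fgf20, an epithelial ligand of teeth and inner ear, had 3 epithelium-only regions and 1 mesenchyme-only region, with 9, 15 and 9 peaks in epithelium against 5, 10 and 6 (log2 difference 0.65 ± 0.31 SE, limma adjusted p = 0.247). Fgf4 had 0 and 4, and Fgf1, Fgf3 and Fgf15 had 0 and 3 each. Fgf3, Fgf4 and Fgf15 lie side by side on chromosome 7, so their windows share regions. The window of Fgf6 holds the start site of Fgf23 and overlaps the window of that gene. Other start sites in the windows of the 62 genes were not counted.

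Of 15 other receptors, co-receptors and surface proteins 1 was higher in epithelium by peak number, and 3 were higher and 2 lower by covered length. Gpc3, a heparan sulphate proteoglycan of the cell surface on the X chromosome, had 23, 24 and 21 peaks in epithelium and 13, 14 and 12 in mesenchyme, with no overlap (log2 difference 0.82 ± 0.22 SE, limma adjusted p = 0.0291), and it held 6 epithelium-only regions and 0 mesenchyme-only. Kl, Flrt2 and Flrt3 had 3 and 0 each and were not called by peak number, while Kl (log2 difference 0.49, limma adjusted p = 0.0295) and Flrt3 (0.61, limma adjusted p = 0.0352) were higher by covered length. Sdc3 (log2 difference -0.30, limma adjusted p = 0.0306) and Sdc4 (-0.30, limma adjusted p = 0.0429) were lower by covered length. Of 16 signal transducers 2 were lower in epithelium by peak number and 4 by covered length. The 4 were Mapk3 (log2 difference -0.36, limma adjusted p = 0.00632), Frs3 (-0.27, limma adjusted p = 0.0444), Ptpn11 (-0.49, limma adjusted p = 0.00814) and Map2k1 (-0.44, limma adjusted p = 0.0396). Ptpn11, the phosphatase Shp2, had 41, 60 and 45 peaks against 69, 76 and 88 (log2 difference -0.61 ± 0.13 SE, limma adjusted p = 0.00423), and Map2k1, the kinase that activates Erk, had 20, 31 and 29 against 42, 49 and 36 (-0.60 ± 0.17 SE, limma adjusted p = 0.0364). In both genes every epithelium library was below every mesenchyme library. Ptpn11 held 0 epithelium-only and 3 mesenchyme-only regions, Map2k1 0 and 1, Grb2 1 and 3 and Shc1 3 and 1.

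Of 14 further feedback inhibitors and target genes, 1 was higher and 1 lower in epithelium by peak number, and 2 were higher and 1 lower by covered length. Spry1, the paralogue of Spry2, had 35, 61 and 50 peaks in epithelium and 23, 30 and 31 in mesenchyme, with no overlap, and it held 7 epithelium-only and 2 mesenchyme-only regions (log2 difference 0.81 ± 0.17 SE, limma adjusted p = 0.00293). Etv4, an ETS factor that Fgf signalling induces, went the other way with 46, 68 and 57 against 78, 95 and 77 (-0.49 ± 0.12 SE, limma adjusted p = 0.0154), and it had no tissue-only region of either kind. Its relative Etv5 had 5 and 0 and the Erk phosphatase gene Dusp6 had 3 and 1, and neither was called on either measure.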

How the data were processed

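ATAC-seq peaks were analysed for 3 epithelium and 3 mesenchyme libraries, grouped by the labels. The sources name Trimmomatic 0.38, Bowtie2 on mm10, SAMtools and deepTools 2.0, and the authors called peaks with MACS2 2.1.1 on fragments under 100 bp. Deposited lists hold the position of each peak and no score. The sources used here do not give the threshold, and the depth in reads is unknown, so list length (270003 to 349322 peaks) stands in for it. The read-based test of the study could not be run.

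Genes came from GENCODE M21 on GRCm38.p6, with the principal transcript as the gene body. The number of peaks in each window, multiplied by the mean over libraries of list length and divided by its own, was put on a log2 scale after adding 1. It was fitted with limma 3.58.1 (mean trend) in R 4.3.3 over the 21724 genes that averaged 1 peak or more, with Benjamini-Hochberg adjustment and a threshold of 0.05. The added 1 shrinks differences where peaks are few. The script was tested on simulated data. Peaks overlapping by at least 1 bp were merged, and regions in at least 2 libraries were kept. Start-site peak widths were compared with an exact permutation test, which cannot go below 0.1 here. The limma p-values set each difference between tissues against the spread between these libraries, moderated over all genes tested. The numbers of the libraries pair no tissues in the labels.

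All members are described. From the pathway lists the text names genes past the limma test and the up to 3 with the most tissue-only regions, with ties. Spry3 is not analysed here, and the details of 1 mesenchyme-only region at Fgf18 are not reported here. Maps, sequences and motifs followed rules on tissue-only regions and peak width. Members and lists were chosen with earlier results of these data known. Alternatives changed the scaling, minimum, pseudocount, window, measure, peak width, overlap, replicate block and libraries.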

Additional observations from a re-analysis of the deposited data

How the results depend on the processing

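No member was called by peak number under any alternative except a change of measure or of gene span. By covered length 2 were higher (1 to 2 with a library left out, an alternative chosen after seeing the data), and with whole gene records, also chosen after seeing the data, 1 was lower. Over all genes, the 328 higher and 369 lower calls became 34 and 16 without scaling, 173 and 147 in windows of 50 kb, 15 and 1 in gene bodies plus 5 kb, 123 and 98 by nearest start sites, 1365 and 1698 by covered length, 0 and 1 with no minimum, and 157 to 277 and 149 to 284 with a library left out. With the replicate block they were 430 and 572 and no member was called. Deviations of same-numbered libraries correlated at 0.019, 0.051 and -0.0077. Such values cannot show whether same-numbered libraries came from the same embryos, which the labels do not give.

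The 14 epithelium-only and 6 mesenchyme-only regions became 43 and 36 when 2 libraries of a tissue sufficed (10.5% and 11.4% of all regions), 23 and 20 when 1 library of the other was let in (5.67% and 5.98%), 11 and 8 with peaks of at least 300 bp (3.84% and 2.53%), and 16 to 27 and 8 to 19 with a library left out (4.15% to 6.75% and 3.39% to 6.5%). Windows of 50 kb left 9 epithelium-only regions. Start sites open in all 6 libraries numbered 7 to 9 across alternatives, and Fgfbp1 alone kept the epithelium-only pattern in each.

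Several log2 differences that were not called changed sign. The values were 0.0224 at Fgf7, -0.008 at Fgfr1 and 0.0434 at Fgfr2 with equal list lengths. The differences stood at 0.15 at Fgf7, -0.009 at Fgfr1, 0.03 at Fgfr2 and 0.0327 at Fgfr3 in 50 kb windows. They were 0.86 at Fgf7, 0.40 at Fgf9, -0.14 at Fgfr1, 0.28 at Fgfr2 and -0.19 at Spry2 in gene bodies plus 5 kb. The values were 0.0214 at Fgf7, 0.14 at Fgf9 and 0.25 at Fgfr2 by covered length. The differences stood at 0.0571 at Fgf7 and -0.015 at Fgfr1 with peaks of at least 300 bp. They were -0.016 at Fgfr1 without scaling. The values were 0.0176 at Fgfr3 by nearest start sites. With a library left out, the values that changed sign ranged from -0.14 to 0.0045 at Fgf7, -0.0514 to 0.23 at Fgf8, -0.18 to 0.0334 at Fgf9, -0.15 to 0.0621 at Fgfr2 and -0.13 to 0.0005 at Fgfr3. The causes were not tested.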
